A study of Mus musculus with 7899 samples.

Results

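The interferon response and antigen presentation genes are 36 mouse genes chosen by symbol: sensors of viral nucleic acid, the transcription factors that carry the interferon signal, antiviral effectors, the ISG15 system, guanylate-binding proteins, the chemokine Cxcl10 and the class I presentation machinery. They are 36 of the 21767 genes in the largest read-count table, and 35 of the 36 had a row in at least 1 table (Mx2 had none). The study followed β cells, the insulin-secreting cells of the pancreatic islet, of female C57BL/6J mice through gestation and after delivery. Islet cells were sorted by flow cytometry and sequenced one cell at a time with Smart-seq3xpress, a full-length method. Reads of the 7897 single cells were summed into 100 libraries, 1 per labelled group and replicate, in 48 groups spread over 7 tables.

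The time course held mice on standard diet, with no genotype label, at gestation day 0 (G0), at 9 gestation stages from G3.5 to G18.5, and 2, 7 and 14 days after delivery, either lactating (P2L, P7L, P14L) or not (P2NL, P7NL, P14NL). The letters L and NL have no definition in the labels and are taken for these 2 states. Knockout tables on standard diet compared Acss2WT with Acss2KO and Stat3WT with Stat3KO at G0, G14.5 and G18.5, and p300WT with p300KO at G0 and G14.5. Acss2 makes acetyl-CoA from acetate, Stat3 is a signal-activated transcription factor, and p300, encoded by Ep300, is a histone acetyltransferase. The diet table held mice on high-fat diet (HFD) at G0, G14.5 and P7NL, Acss2WT and Acss2KO mice on high-fat diet at G0 and G14.5, and Acss2WT mice on standard diet at G14.5. The culture tables held standard-diet islets kept for 4 days in 20% human serum, either maternal (MS) or normal (NS). Cultures received 5 µM A485, an inhibitor of p300 and its relative CBP, or 20 µM nifuroxazide (Nif), an inhibitor of Stat3 signalling, or the vehicle DMSO. Each group had 2 replicates, or 3 at G14.5, G18.5, P14L and HFD G14.5. The labels name no Cre driver, deleted exon, mouse age or sort marker, and do not say whether a replicate was 1 mouse or a pool, so p-values measure only the spread between these libraries, which may be technical.

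A library held 21 to 160 cells (median 81) and 13273435 to 181405413 reads. Ins1 and Ins2, the insulin genes that define a β cell, took 33 to 69.8% of the reads of a library (median 56.8%). Markers of other cell types were also read in the time course: the summed level of 9 macrophage and dendritic cell markers was 31.6 to 60.2 reads per 1000000 reads (CPM) at G0 and 106.8 to 121.8 at G8.5. Marker sums were taken per total reads of a library without further scaling. The CPM of single genes was also scaled by the trimmed mean of M-values, so the 2 are not on the same scale. In a sum over cells, fewer expressing cells and less RNA per cell cannot be told apart. The G0 libraries of the time course were the smallest of it in total, with 72 and 35 cells, and every gestation stage and every day after delivery without lactation was compared with these same 2 libraries. Of 6927 cells compared on their member counts and read totals, 0 were identical to another cell.

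Interferons are cytokines released when a cell senses viral nucleic acid. Type I interferon, acting through its receptor, brings Stat2 and Irf9 into a complex that binds the interferon-stimulated response element (ISRE) in promoters of effector genes, while Irf1 is induced by interferon γ. The class I genes give the cell surface its peptide display: H2-K1 and H2-D1 are heavy chains, B2m is their light chain, Tap1 and Tap2 form the transporter that brings peptides into the endoplasmic reticulum, and Tapbp (tapasin) tethers the heavy chain to that transporter. In islets this programme is known for its part in autoimmune diabetes, where β cells display class I strongly.

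The ISRE core was looked for in the members' promoters because the effectors and the class I genes of this list were later seen at high levels in the same few cells. Promoters of 300 bases (250 before and 50 after the annotated start) came from RefSeq, build GRCm38.p6, and 28 of the 36 members had at least 1. The motif GAAANNGAAA, read on either strand (TTTCNNTTTC on the other) with neighbouring matches merged, lay in 15 of the 33 promoters of these members (45.5%) and in 1131 of all 32851 promoters (3.44%). Of the 5 class I genes with a promoter, B2m had a match, and H2-K1, H2-D1, Tap1 and Tapbp had none in these windows. Windows of 6 members with a match, chosen to span effectors, Stat2 and B2m, are shown 5′ to 3′ on the gene's strand, with the matched bases in capitals.
Rsad2, chr12:26456548-26456587, minus strand: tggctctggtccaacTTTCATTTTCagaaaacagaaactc
Ifit1, chr19:34640770-34640828, plus strand: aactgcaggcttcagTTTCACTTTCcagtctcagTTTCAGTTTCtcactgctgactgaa
Ifit3, chr19:34583358-34583397, plus strand: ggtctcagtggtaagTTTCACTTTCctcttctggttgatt
Isg15, chr4:156200860-156200911, minus strand: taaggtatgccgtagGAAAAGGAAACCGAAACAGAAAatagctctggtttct
Stat2, chr10:128270261-128270300, plus strand: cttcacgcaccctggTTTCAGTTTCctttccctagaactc
B2m, chr2:122147533-122147572, plus strand: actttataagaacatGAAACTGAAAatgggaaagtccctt
A match describes these letters and not a bound site.

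On a per-length scale (RPKM, reads scaled to gene length and library size) the class I genes led the list in the 35 time-course libraries. The median level was 156.99 for H2-K1, 107.98 for H2-D1 and 56.8 for B2m, then 40.1 for Ifi27, a small interferon-induced membrane protein, and 27.2 for Tapbp. Ifi35 followed with a median of 15.4, Irf1 with 12.6, Usp18 with 11.1 and Tap2 with 6.15. The ranges of neighbours in this order overlapped, for example 106.7 to 194 for H2-K1 and 72.7 to 138.9 for H2-D1. Reads of H2-K1 and H2-D1, of Oas1a, of Ifit3 and of the Gbp genes can be assigned uncertainly because near-identical relatives exist. At the other end Isg15, the ubiquitin-like modifier, had a median of 0.110, and Zbp1, a sensor of Z-form nucleic acid, was at 0 in 24 of the 35 libraries, Oas3 in 23 and Ifi44 in 19. By CPM, the unit of all levels of libraries below, 11 members had a median over 10, 12 from 1 to 10 and 12 under 1. H2-K1 was read in a median of 100% of a library's cells at a thinned depth of 100000 reads outside the insulin genes, Tapbp in 99%, B2m in 82.6%, Rsad2 in 24.3% and Isg15 in 0.98%.

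Through gestation, tapasin was lower than at G0 at 8 of the 9 stages. Tapbp stood at 116.5 and 138.9 CPM in the G0 libraries, at 84 and 81.9 at G3.5, and 68.9 and 71.8 at G8.5. The G12.5 libraries stood at 63.7 and 64.9, with Tapbp at 61.4, 68.2 and 61.8 at G14.5, and at 68.8, 75.4 and 60.6 at G18.5. The G0 libraries were the highest of the 35, and none of the gestation libraries reached them. Tapbp fell by 1.00 ± 0.13 (SE) on the log2 scale at G14.5 (adjusted p = 2.8e-06, edgeR quasi-likelihood test with Benjamini-Hochberg adjustment), by 0.99 at G12.5 (adjusted p = 3.0e-05) and by 0.86 at G8.5 (adjusted p = 2.8e-04). It was also called lower at G3.5, G5.5, G10.5, and both G16.5 and G18.5, and at G6.5 its difference was -0.51 (adjusted p = 0.059). The calls of Tapbp at G8.5 and at every stage from G12.5 on held with any 1 library left out. Those at G3.5 and at G5.5 were each lost in 3 of 4 such refits, and that at G10.5 in 2 of 4. Without G0 replicate 2, the higher of the G0 libraries, the difference was -0.56 at G10.5 and -0.49 at G3.5.

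The transporter subunit Tap2 moved the other way. It stood at 15.3 and 13.4 CPM at G0, 25.9 and 24.2 at G8.5, 29.7 and 24.4 at G10.5, 29.1 and 19.9 at G16.5, and 23.4, 27.6 and 28.4 at G18.5. Every one of these stages lay above both G0 libraries. Tap2 rose by 0.80 at G8.5 (adjusted p = 0.035), 0.91 at G10.5 (0.023), 0.77 at G16.5 (0.036) and 0.88 ± 0.22 (SE) at G18.5 (0.012), while at G14.5, with libraries at 17, 23.5 and 17.7, it was not called. Leaving out single libraries ended the Tap2 call at G8.5 and G10.5 in every refit (adjusted p from 0.052 to 0.25), at G16.5 in 3 of 4 (up to 0.39) and at G18.5 in 2 of 5 (up to 0.17). Its partner Tap1 ranged from 2.91 to 10.4 CPM and was called in no comparison of the series.

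The remaining class I genes were not called in the time course. B2m ranged from 24.6 to 92.1 CPM over the 35 libraries with G0 at 45.7 and 45.4, near the middle of that range. H2-K1 ranged from 200 to 363 CPM and H2-D1 from 152.9 to 292.

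**Figure D1:**
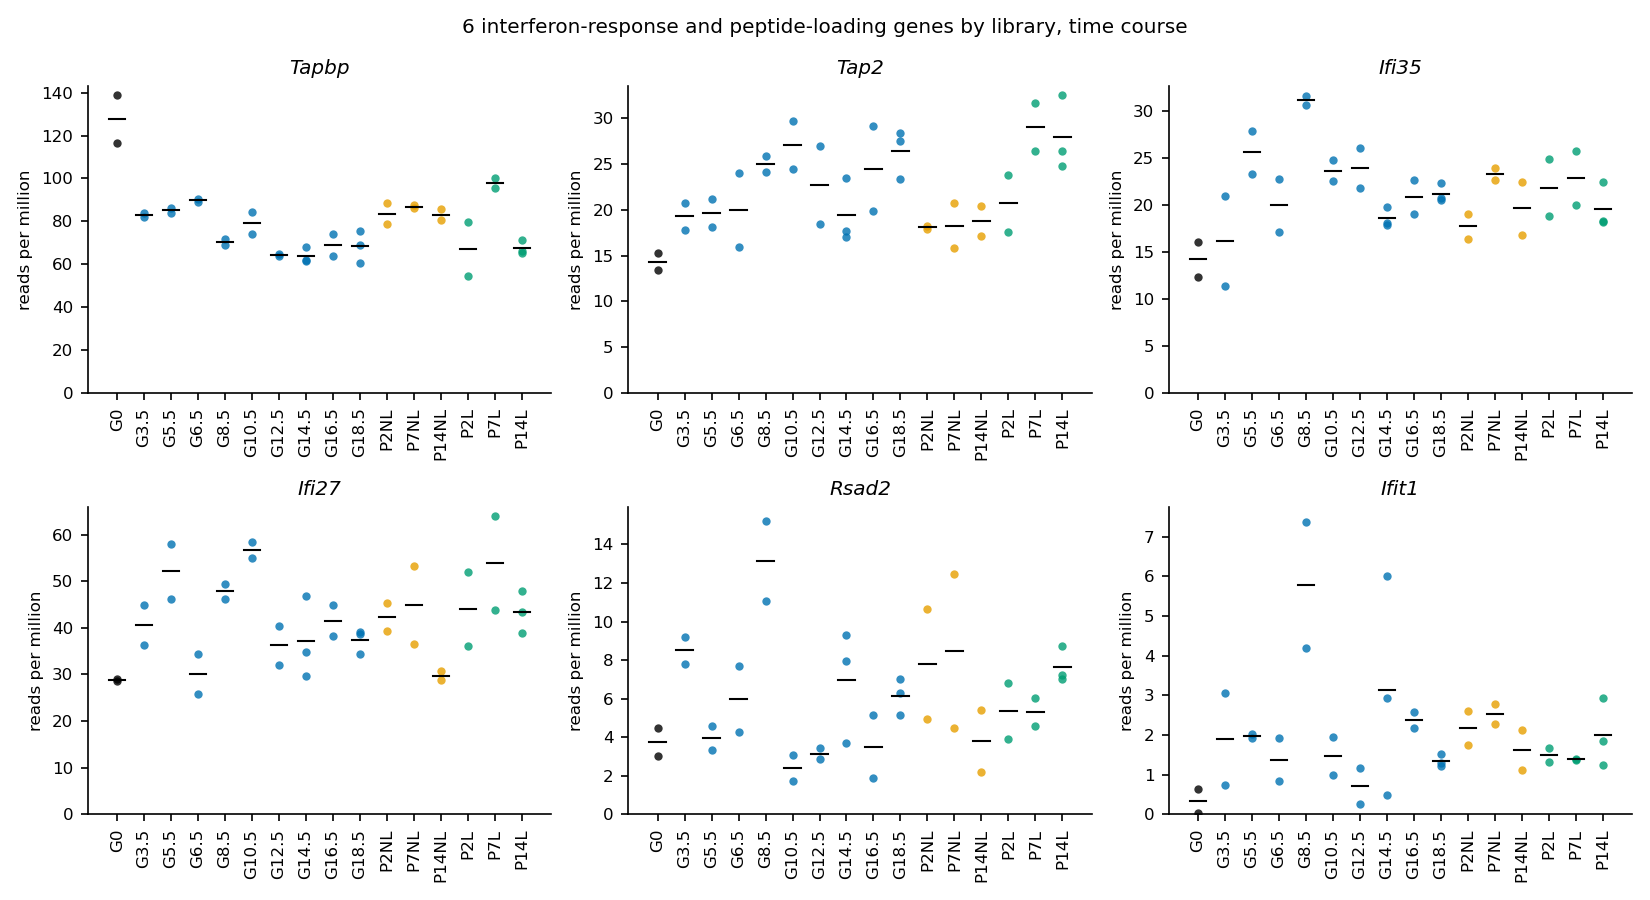
Levels of 6 members (CPM) in the 35 time-course libraries, 1 point per library and a bar at the group mean, with G0 in black, gestation in blue, not lactating in orange and lactating in green. Tapbp is highest in the G0 libraries (116.5 and 138.9), Tap2 lies above G0 from G8.5 to G10.5, and Rsad2 and Ifit1 peak at G8.5 with widely spread libraries.

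Among the antiviral effectors, Ifi35 and Ifi27 were each called higher at 3 stages. These were G5.5, G8.5 and G12.5 for Ifi35, and G5.5, G8.5 and G10.5 for Ifi27. Ifi35, an interferon-induced cytosolic protein, stood at 16.1 and 12.3 CPM at G0, 23.3 and 27.9 at G5.5, 31.6 and 30.6 at G8.5, then 21.8 and 26 at G12.5. Its difference was 1.13 ± 0.23 (SE, log2) at G8.5 (adjusted p = 0.002, or 0.062 without G0 replicate 2), 0.84 at G5.5 (0.047, lost in 3 of 4 refits without 1 library, up to 0.41) and 0.75 at G12.5 (0.047, lost in 4 of 4, up to 0.35). Ifi27 stood at 28.9 and 28.6 CPM at G0, 58 and 46.2 at G5.5, 49.5 and 46.2 at G8.5 and 55 and 58.3 at G10.5, so these stages did not overlap G0. Its differences were 0.85 (adjusted p = 0.036), 0.73 (0.038) and 0.98 (0.0082), and each of these Ifi27 calls ended in every refit without 1 library (adjusted p from 0.051 to 0.27).

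Rsad2 (viperin, a radical enzyme that blocks viral replication) and Ifit1 (which binds viral RNA caps) were called higher at G8.5. Rsad2 stood at 4.47 and 3.00 CPM at G0 and 15.2 and 11.1 at G8.5, and Ifit1 at 0.635 and 0.0416 at G0 and 7.37 and 4.19 at G8.5. The differences were 1.80 ± 0.52 (SE, log2, adjusted p = 0.033) and 3.96 ± 0.94 (0.0091). Leaving out 1 library ended the Rsad2 call in 4 of 4 refits (differences of 1.55 to 2.13) and the Ifit1 call in 2 of 4 (3.19 to 7.08). At G8.5 single cells held a large part of these reads: 71.7% and 47.4% of the Rsad2 reads and 66.7% and 69.2% of the Ifit1 reads of the 2 libraries came from 1 cell each. Without the cells that held reads of 16 or more members (described further on), the Rsad2 difference at G8.5 was 0.45 (adjusted p = 0.65) and that of Ifit1 was 2.37 (0.11). The choice of those cells rested on reads of Rsad2 and Ifit1 among others, so lower values without them follow in part from that choice. At G14.5 Ifit1 stood at 0.487, 2.93 and 6.00 CPM, which overlapped G0, and was called higher by 3.08 ± 0.88 (SE, adjusted p = 0.021), or 0.22 without G0 replicate 2. The markers of macrophages and dendritic cells at G8.5 lay above G0, as given in the opening, with 4 to 6 of the 9 measured markers read, and the summed hepatocyte markers were 1428 to 1659 CPM against 957 to 1396 at G0, with 10 of 10 and 8 to 9 of 10 markers read. The hepatocyte sum counted Ttr, which β cells also express, so it is not a measure of hepatocytes alone. The part of these markers in the differences was not tested.

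Single stages gave calls of 3 other members. Oas2, which makes the second messenger that activates RNase L, stood at 7.27 and 7.58 CPM at G0 and 25.5, 15.7 and 16 at G18.5, and rose by 1.36 ± 0.35 (SE, log2, adjusted p = 0.015, lost in 3 of 5 refits without 1 library, up to 0.12). Irf9, the DNA-binding partner of Stat2, stood at 10.4 and 6.41 CPM at G0 and 20.6 and 18.2 at G10.5, and rose by 1.20 ± 0.28 (SE, adjusted p = 0.013, or 0.23 without G0 replicate 2). Ifit3, an adaptor of Ifit1, was at 0.889 and 0.625 CPM at G0 and at 0 in both G16.5 libraries, at least 35.4-fold lower against a floor of 3 reads per library (adjusted p = 0.0074, or up to 0.087 with 1 library left out). The members followed in every table did little else here: Stat2 ran from 7.70 to 20.9 CPM, Irf7, the master regulator of late type I interferon, from 0.108 to 8.81, and Isg15 from 0 to 4.69, and the 3 were called at no stage.

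Counted by stage, with the share of all 15373 tested genes that the same test called as the background, the 35 members were called as follows. At G3.5 it was 1 member (lower) against a background of 0.579%, and at G5.5 it was 3 (2 higher) against 1.57%. At G6.5 the edgeR test called 0 members against 1.65%, with 7 members at an unadjusted p under 0.05, 3 called by DESeq2 and 1 by limma on equally weighted cells. G8.5 gave 6 (5 higher) against 5.79%, G10.5 gave 4 (3 higher) against 2.76% and G12.5 gave 2 (1 higher) against 5.03%. G14.5, where the most genes changed, gave 2 (1 higher) against 10.1%, G16.5 gave 3 (1 higher) against 7.25% and G18.5 gave 3 (2 higher) against 4.77%. The member share was below the background at G6.5 and G14.5, and near it at G12.5 (5.71%) and G16.5 (8.57%). It lay above the background at the other stages, where the 2.86% at G3.5 was the single call of Tapbp. No test was made of these differences, and all stages shared the same G0 libraries. The median log2 difference of the 35 members at G8.5 was 0.73, or 0.45 without the cells that held reads of 16 or more members, against 0.00 over all genes. Those cells were chosen by reads of the members outside class I, so the lower median follows in part from the choice. In all, 24 calls were made over the 9 stages, 15 higher and 9 lower, and 8 of the 9 lower ones were Tapbp. Leaving out G0 replicate 2 brought the count to 7, and leaving out G0 replicate 1 to 17.

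Asked whether a member differed anywhere among the 16 time-course groups, the test called 16 of 35 members, against 17.4% of all genes. Without the 8 cells of the time course that held reads of 16 or more members, it called 9: Irf9, Ifi35, Tapbp, Tap2, Usp18, Oas2, Cxcl10, Oas1a and Ifi27. The 7 that were then no longer called were Rsad2, Ifit3, Stat2, Bst2, Xaf1, Gbp2 and Zbp1. Reads of these 7 entered the count that chose the cells, so the loss follows in part from the choice. The share of all genes called in this refit is not given. Gbp2, for example, stood at 15.1 CPM in P7NL replicate 2, where 90.4% of its reads came from 1 cell.

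After delivery Tapbp was the only member called. It stood at 88.4 and 78.6 CPM at P2NL, 87.5 and 86 at P7NL and 80.5 and 85.5 at P14NL, between the G0 and the late gestation libraries. At P2NL 1 member, Tapbp, was lower against G0 (-0.61, adjusted p = 0.029, background 0.572%) and at P14NL again 1 (-0.62, adjusted p = 0.043, background 0.28%). At P7NL the edgeR test called 0 against 0.462%, with Tapbp at -0.56 (adjusted p = 0.065), 10 members at an unadjusted p under 0.05, 3 called by DESeq2 and 0 by limma. The Tapbp calls at P2NL and P14NL each ended in 3 of 4 refits without 1 library, the one without G0 replicate 2 among them. The differences then ran from -0.73 to -0.48 at P2NL and from -0.74 to -0.49 at P14NL. Lactation moved no member past the test: P2L against P2NL gave 0 by edgeR (background 0.124%, 4 at an unadjusted p under 0.05, 0 by DESeq2 and by limma), P7L against P7NL gave 0 (0.839%, 6, 0 and 0) and P14L against P14NL gave 0 (0.722%, 11, 2 by DESeq2 and 1 by limma).

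Other genes of the pathway came from lists chosen with the members, and their calls are summed over the 9 gestation stages. The 15 receptors, kinases, Stat genes and inhibitors gave 0 calls by edgeR in either direction, and no gene of the 10-gene list of interferons themselves passed the filter on low counts. Against a background of 4.39% of all tests over these stages, the 16 tested genes of nucleic acid sensing and relay gave 2 calls higher and 5 lower (4.86% of their tests). The 55 other interferon-stimulated genes gave 17 higher and 7 lower (4.85%), and the 22 other class I and immunoproteasome genes 14 higher and 2 lower (8.08%). The first 2 shares lay near the background. The 6 tested class II genes gave 0. Most of the higher class I calls came from Calr and Pdia3. Calr was called at every stage from G8.5 to G18.5 and Pdia3 at every stage from G6.5 to G18.5. Leaving out 1 library ended the Pdia3 call in 4 of 4 refits at G6.5 and at G10.5. It ended that call in 1 of 4 at G8.5 and at G16.5, and in 3 of 5 at G18.5. The Calr call was lost in 2 of 4 such refits at G12.5 and in 2 of 5 at G18.5. Both hold the class I heavy chain beside tapasin during peptide loading and also serve general protein folding. These 2 genes, with Psmb9 and Isg20 below, were singled out after their values were seen.

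Calr stood at 409 and 433 CPM at G0 and 794, 650 and 838 at G14.5, and Pdia3 at 383 and 398 at G0 and 712, 699 and 716 at G14.5. They rose by 0.85 ± 0.14 (SE, log2, adjusted p = 1.2e-04) and 0.86 ± 0.16 (5.4e-04) at the stage where Tapbp fell by 1.00. Psmb9, an interferon-inducible subunit of the immunoproteasome, was called lower at G14.5 by 1.06 ± 0.27 (SE, adjusted p = 0.0093).

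Gbp8, a guanylate-binding protein outside the member list, was called higher at every stage from G8.5 to G18.5, with the G8.5 call lost in 1 of 4 refits without 1 library (adjusted p up to 0.14). It stood at 0.397 and 0.833 CPM at G0, 4.47 and 4.26 at G8.5, 21.2, 33.8 and 22.7 at G14.5 and 24.7, 21.8 and 33.4 at G18.5. Its difference at G14.5 was 5.54 ± 0.70 (SE, log2, adjusted p = 2.9e-06). The related members Gbp2, Gbp3 and Gbp7 were called at no stage. Isg20, an interferon-inducible exonuclease, rose from 74.6 and 85.2 CPM at G0 to 154.8, 175 and 195 at G14.5, by 1.13 ± 0.20 (SE, adjusted p = 3.1e-04).

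The G14.5 against G0 comparison was repeated in the wild types of the knockout tables, with their own libraries. Tapbp was below G0 in each, in none past the test, and the difference from the time course was not tested. In Acss2WT it stood at 95.4 and 86.9 CPM at G0 and 55.3 and 62.7 at G14.5 (-0.63, adjusted p = 0.091). The difference was -0.38 in Stat3WT (adjusted p = 0.37) and -0.26 in p300WT (0.45), and -0.54 in the unlabelled HFD mice (0.082). Over these wild types the edgeR test called 0 of 33 members for Acss2WT (background 2.92%, 9 at an unadjusted p under 0.05, 3 by DESeq2, 2 by limma), 0 of 23 for Stat3WT (1.74%, 4, 1 and 0) and 0 of 31 for p300WT (2.15%, 3, 1 and 1).

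**Figure D2:**
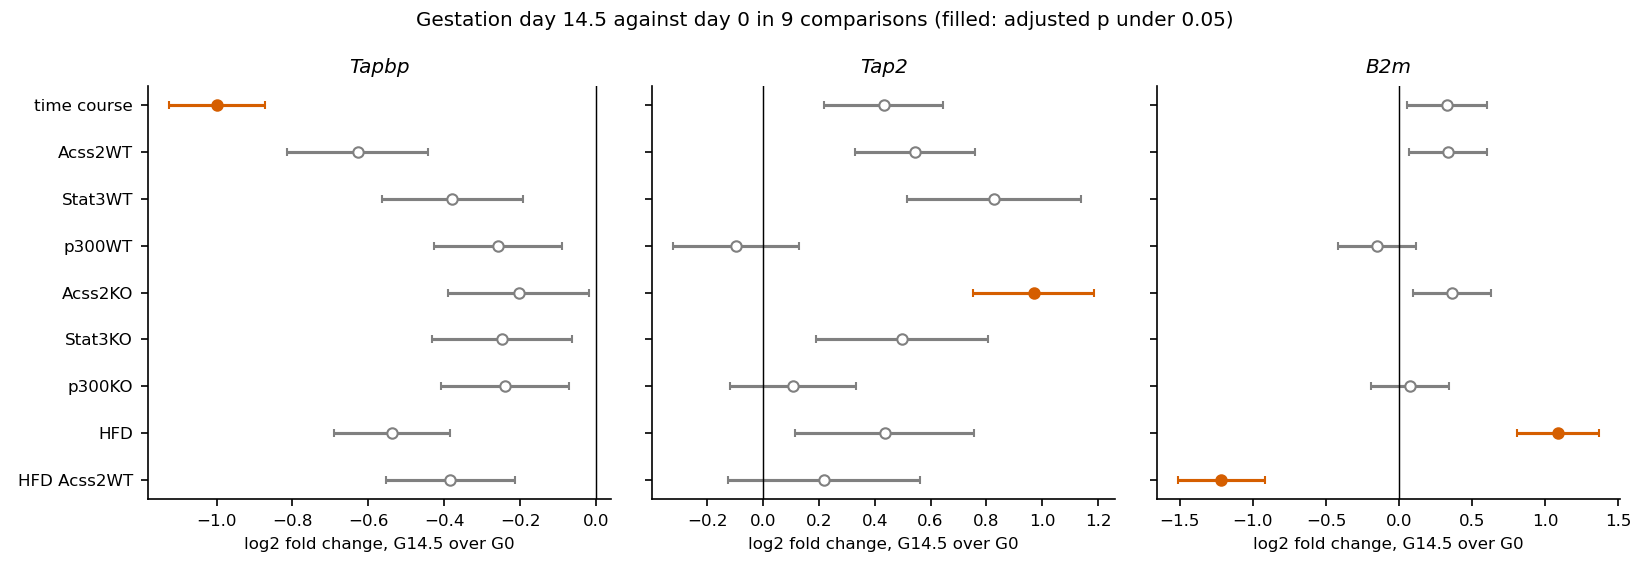
Log2 fold change of G14.5 over G0 with its standard error for Tapbp, Tap2 and B2m in 9 comparisons, each with its own libraries, filled where the adjusted p was under 0.05; B2m has no row in the Stat3 table. Tapbp is below 0 in all 9 and called in the time course, and B2m goes in opposite directions in the HFD and HFD Acss2WT mice.

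In the knockout tables the targeted gene was read first as a check of the labels, with the deleted part not given. Acss2 stood at 11.3 and 9.75 CPM in the libraries labelled Acss2KO against 18 and 26.1 in Acss2WT at G0, and Ep300 at 15.9 and 11.9 in p300KO against 24.2 and 36.7 in p300WT. Stat3 stood at 66.1 and 49.4 CPM in the libraries labelled Stat3KO and 65.9 and 70.8 in Stat3WT at G0, which overlapped, and at 67.4 and 73.7 against 80.3 and 90.2 at G14.5. The Stat3 difference passed the test at none of the 3 stages, so a direction drawn from the libraries labelled Stat3KO rests on their labels. The Stat3 table also lacked B2m, H2-K1, H2-D1, Nlrc5, Bst2, Ifi27, Ifit2, Ifit3 and Oas1a.

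With Acss2 knocked out no member passed the edgeR test against wild type on standard diet. It called 0 at G0 (background 0.00711%, 3 at an unadjusted p under 0.05, 0 by DESeq2 and limma), 0 at G14.5 (0.0213%, 2, 1 and 0) and 0 at G18.5 (0.149%, 2, 1 and 0). The libraries labelled Stat3KO gave 0 at G0 (background 0%, 2 at an unadjusted p under 0.05, 1 by DESeq2 and 0 by limma), 0 at G14.5 (0.0098%, 3, 0 and 0) and 0 at G18.5 (0.0196%, 2, 0 and 0). Few genes of any kind passed in these comparisons, and a count of 0 among the members is near that background.

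The response to gestation within the knockouts gave single calls. In Acss2KO mice Tap2 stood at 21.7 and 18.6 CPM at G0 and 36.8 and 42 at G14.5 and rose by 0.97 ± 0.22 (SE, log2, adjusted p = 0.017), 1 member of 33 against a background of 4.35%, and the call ended with any 1 of these 4 libraries left out (adjusted p from 0.068 to 0.20). The Stat3KO libraries gave 0 of 23 by edgeR (1.7%, 4 at an unadjusted p under 0.05, 0 by DESeq2, 1 by limma) and p300KO 1 of 31 (3.27%), which was Rsad2. Whether the knockout changed the effect of the stage was tested as a difference of differences. For Acss2 it called 0 by edgeR at G14.5 (0.0213%, 4 at an unadjusted p under 0.05) and 0 at G18.5 (0.0142%, 3), for Stat3 0 at G14.5 (0%, 3) and 0 at G18.5 (0.0392%, 1), with 0 by DESeq2 and limma in each.

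The p300 knockout lowered Rsad2 at G0. Rsad2 stood at 7.86 and 10.6 CPM in p300WT at G0 and at 0.117 and 0.0595 in p300KO, where 8 and 4 reads came from 4 of 43 and 2 of 40 cells, against 15 of 30 and 53 of 85 cells in wild type. At G14.5 it stood at 6.79 and 3.92 CPM in p300WT and 2.38 and 4.50 in p300KO, so the groups overlapped there and not at G0. Rsad2 fell by 6.68 ± 0.72 (SE, log2) in p300KO at G0 (adjusted p = 8.4e-04), 1 of 31 members against a background of 1.54%, and this call held with any 1 library left out. At G14.5 the edgeR test called 0 (background 0%, 5 at an unadjusted p under 0.05, 1 by DESeq2, 0 by limma), with Rsad2 at -0.64 (adjusted p = 0.76). Within p300KO, Rsad2 rose by 5.26 ± 0.69 (SE) from G0 to G14.5 (adjusted p = 0.0011).

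The difference between the p300KO effects at the 2 stages was 6.04 ± 0.87 (SE, log2) for Rsad2 (adjusted p = 0.023), 1 member of 31 against 0.0668%. It was no longer past the test in 6 of 8 refits without 1 library (adjusted p up to 0.13). Cmpk2, the mitochondrial nucleotide kinase whose gene lies next to Rsad2 on chromosome 12, stood at 28.9 and 31.4 CPM in p300WT and 12.7 and 9.36 in p300KO at G0, and was lower by 1.45 ± 0.23 (SE, adjusted p = 0.0097). At G14.5 it stood at 26.3 and 27.8 against 13.1 and 13.8, a difference of -1.01 (adjusted p = 0.12). Gbp8 was at 0 in both p300KO libraries at G0 and at 1.15 and 0.746 CPM in p300WT, at least 21.5-fold lower against the same floor of 3 reads per library (adjusted p = 0.0059), a call lost in 2 of 4 refits without 1 library (adjusted p up to 0.064). Macrophage and dendritic cell markers summed to 23.6 to 24.8 CPM in p300KO at G0 (3 to 4 of 9 markers read) and 47.8 to 70.8 in p300WT (4 to 5 of 9), and their part in the Rsad2 difference was not tested.

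On high-fat diet the class I light chain moved with gestation, in opposite directions in different mice. In HFD mice B2m stood at 51 and 43.5 CPM at G0 and 104.7, 139.4 and 56.7 at G14.5, higher by 1.09 ± 0.28 (SE, log2, adjusted p = 0.049), and in HFD Acss2WT mice at 82.4 and 109.3 at G0 and 33.7 and 48.7 at G14.5, lower by 1.22 ± 0.30 (SE, adjusted p = 0.041). Neither pair of groups overlapped. At G0 the HFD Acss2WT libraries lay above the HFD libraries, a difference that was not tested. The first was 1 member called of 34 (background 1.95%), and it was lost in 4 of 5 refits without 1 library (adjusted p up to 0.52). In the HFD libraries 52 of 59, 57 of 81 and 37 of 53 cells at G14.5 lay below the limit on markers of other cell types, against 48 of 50 and 64 of 68 at G0. Without the cells above it the B2m difference was 0.80 (adjusted p = 0.088). Macrophage and dendritic cell markers summed to 129.9 to 152.8 CPM at G14.5 (4 of 9 read) and 52.7 to 79.5 at G0 (4 to 5 of 9). The second was 1 of 3 members lower (background 1.93%), and it was lost in 4 of 4 (up to 0.32).

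The other members lower in HFD Acss2WT mice at G14.5 were Irf7, at 3.17 and 3.46 CPM at G0 and 0.411 and 0.232 at G14.5 (-3.36 ± 0.84 SE, adjusted p = 0.043), and Rsad2, at 12.6 and 21.7 and then 5.20 and 3.89 (-1.91 ± 0.37 SE, adjusted p = 0.009). Leaving out 1 library ended the Irf7 call in 4 of 4 refits (-3.83 to -3.00) and the Rsad2 call in 3 of 4 (-2.25 to -1.48). In the second G0 library 1 cell held 87.9% of the Irf7 reads and 92.4% of the Rsad2 reads. Without that cell the library stood at 0.430 CPM for Irf7 and 1.70 for Rsad2, and the differences were -2.49 (adjusted p = 0.22) and -0.66 (0.64), while B2m remained at -1.21 (0.040). Reads of Irf7 and Rsad2, and not of B2m, were among those that chose the cell, so their smaller differences follow in part from the choice. The median of the 34 members in this comparison was -0.99, or -0.22 without that cell, against 0.00 over all genes.

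No member was called in the remaining diet comparisons by edgeR. HFD P7NL against HFD G14.5 gave 0 (background 1.32%, 7 at an unadjusted p under 0.05, 3 by DESeq2, 0 by limma), and HFD against standard diet in Acss2WT at G14.5 gave 0 (0.213%, 5, 1 and 1), with H2-D1 at 206 and 260 CPM against 140.8 and 132.2 and a difference of 0.77 ± 0.17 (SE, adjusted p = 0.055). Acss2KO against Acss2WT on high-fat diet gave 0 at G0 (0%, 9, 1 and 0) and 0 at G14.5 (0.0638%, 4, 1 and 0), and the difference between these stages gave 0 (0.0142%, 5, 1 and 0).

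In cultured islets the serum comparison stood out for B2m in 1 table and not in the other. With A485 vehicle, B2m stood at 37.6 and 35.7 CPM in maternal serum and 176 and 130 in normal serum, a difference of -2.06 ± 0.19 (SE, log2, adjusted p = 3.5e-04), 1 of 31 members against a background of 0.657%, and the call held with any 1 library left out. With nifuroxazide vehicle, also DMSO, it stood at 79.5 and 28.4 CPM in maternal serum and 33.7 and 31.8 in normal serum, and the edgeR test called 0 of 29 members (background 1.02%, 4 at an unadjusted p under 0.05, 1 by DESeq2, 1 by limma). In the library at 79.5 CPM, 72.2% of the B2m reads came from 1 cell. The heavy chains did not follow B2m in the A485 table, where H2-K1 lay between 393 and 461 CPM in all 8 libraries, and macrophage and dendritic cell markers summed to 18.8 to 50.2 CPM in maternal serum and 24.3 to 26.2 in normal serum.

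A485 lowered 1 member past the test in normal serum. Oas2 stood at 1.30 and 1.79 CPM with vehicle and 0 in both A485 libraries, at least 13.3-fold lower against a floor of 3 reads per library (adjusted p = 0.020), 1 of 31 members against a background of 2.57%, and it was lost in 2 of 4 refits without 1 library (adjusted p up to 0.14). In maternal serum the edgeR test called 0 (background 3.3%, 9 at an unadjusted p under 0.05, 4 by DESeq2 and 4 by limma), with Oas2 at 6.00 and 5.53 CPM with vehicle and 1.68 and 0.678 with A485 (-2.28, adjusted p = 0.20). The difference of the A485 effect between sera gave 0 by edgeR (0.00738%, 3, 1 by DESeq2 and 0 by limma).

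Usp18 and Oas2 in the cultures were singled out after their values were seen. Usp18, the protease that removes ISG15 and restrains the interferon receptor, stood at 23.7 and 21.8 CPM with vehicle and 9.71 and 7.91 with A485 in normal serum (-1.37, adjusted p = 0.056), and at 15.2 and 18.52 and then 5.95 and 11.3 in maternal serum (-0.97, adjusted p = 0.15). The A485 libraries lay below the vehicle libraries in both sera. Isg20 was called lower by A485 in both, at 34 and 32.8 CPM against 105.1 and 79.7 in normal serum and 38.5 and 79.3 against 125.4 and 158.4 in maternal serum, calls lost in 3 of 4 and 2 of 4 refits without 1 library (adjusted p up to 0.18 and 0.13). Oas2 was higher in maternal than in normal serum in both vehicle tables, at 9.19 and 10.8 CPM against 1.97 and 0.740 in the nifuroxazide table, without passing the test there (2.87 ± 0.70 SE, adjusted p = 0.086) or in the A485 table (1.89, 0.42).

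Nifuroxazide moved no member past the edgeR test. It called 0 in normal serum (background 1.99%, 6 at an unadjusted p under 0.05, 1 by DESeq2, 1 by limma), 0 in maternal serum (0.697%, 2, 0 and 1) and 0 for the difference between sera (0%, 4, 0 and 0). Oas2 stood at 4.22 and 3.26 CPM with nifuroxazide in maternal serum, below both vehicle libraries, with a difference of -1.42 (adjusted p = 0.51).

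The members followed through every table can also be set side by side, in tables that were normalized separately and with no test between them. H2-K1 lay at 382 to 502 CPM in the 16 cultured libraries and at 183 to 381 in the 72 libraries of fresh cells whose tables held it. H2-D1 lay at 277 to 490 CPM in culture and 124.01 to 317 in fresh cells, and Tap1 at 7.49 to 22.9 and 1.56 to 10.53 (84 fresh libraries). Cultured libraries thus lay above all fresh ones for H2-K1 but overlapped them for H2-D1 and Tap1. B2m (23.1 to 176 CPM against 24.6 to 139.4), Stat2 (9.13 to 24.6 against 7.70 to 25.1) and Irf7 (0 to 8.49 against 0.108 to 8.81) spanned like ranges. Isg15 reached 0.265 CPM in culture and 14.3 in fresh cells, and Ifit3 reached 1.68 and 28.6, both maxima from the library HFD_G0_Acss2WT replicate 2.

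**Figure D3:**
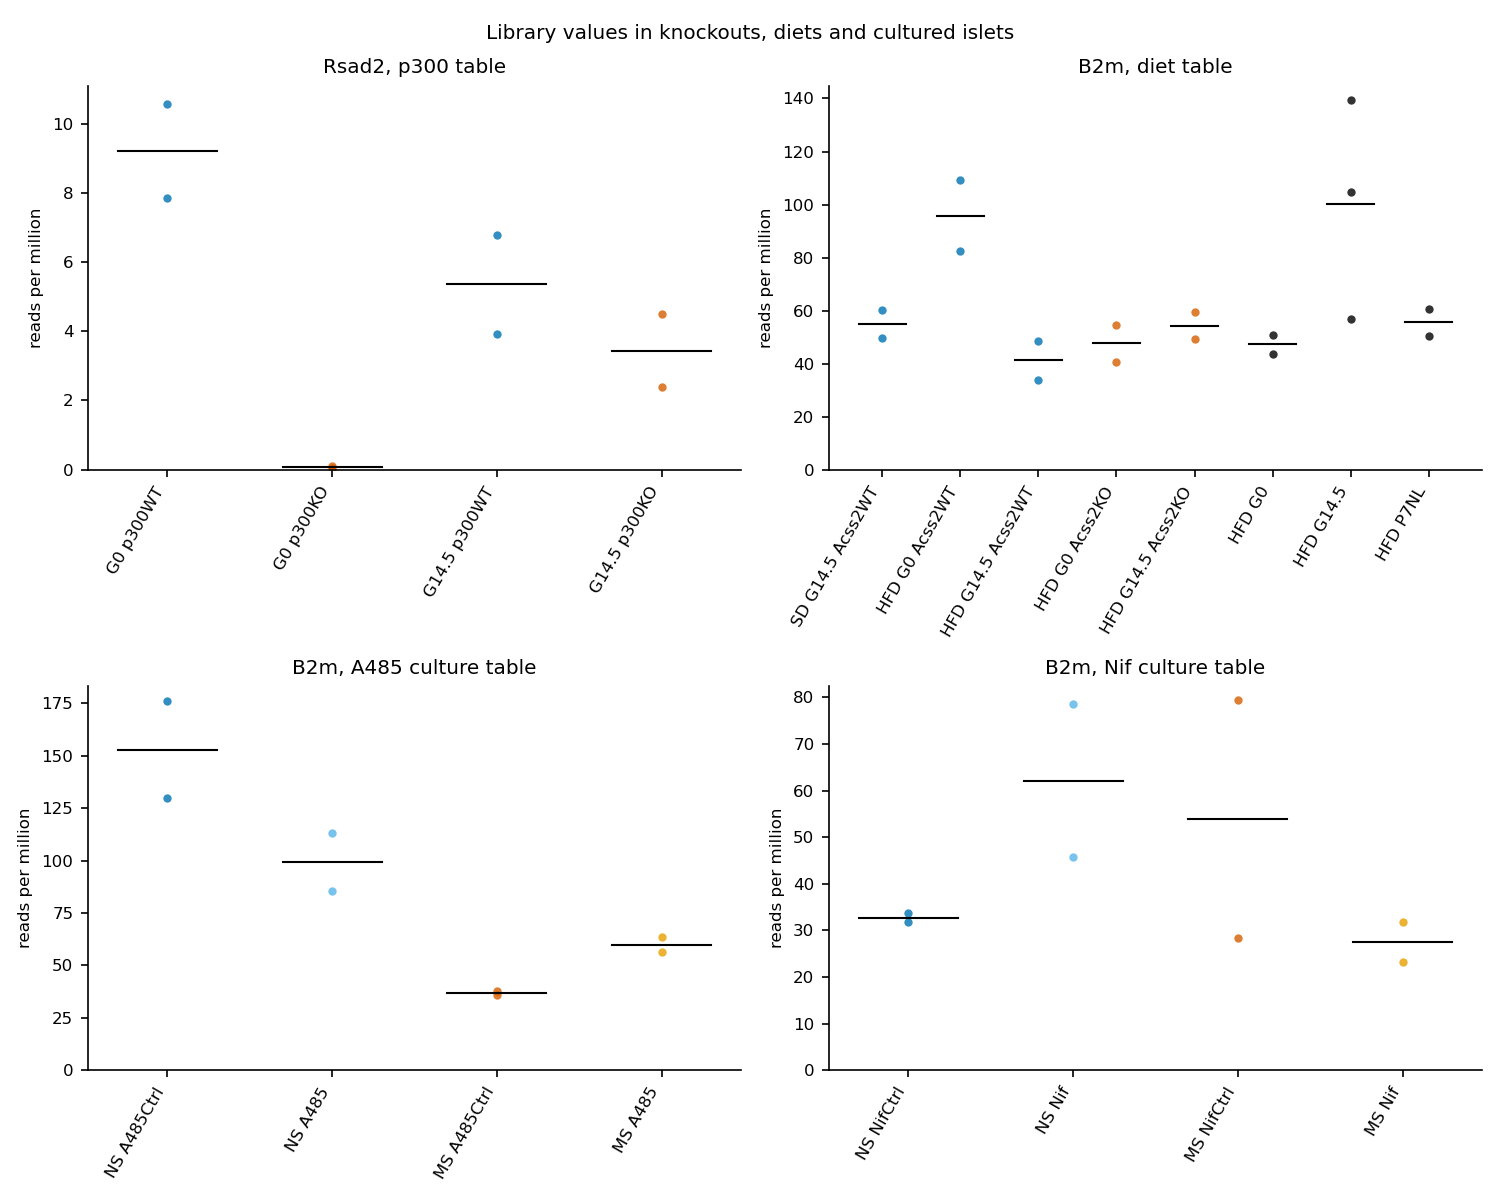
Library values (CPM, 1 point per library, bar at the group mean) of Rsad2 in the p300 table and of B2m in the diet table and both culture tables. Rsad2 is near 0 in p300KO at G0 (0.117 and 0.0595), and B2m in normal serum with vehicle is at 176 and 130 in the A485 table and 33.7 and 31.8 in the nifuroxazide table.

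Single cells differed widely in how many members they held reads of. Counting, at the thinned depth, how many of the 29 members outside the class I genes (23 in the Stat3 table) had a read, 7798 cells had a median of 6 and a range of 0 to 24. The distribution had a thin upper end, with 12 cells at 14, 6 at 15, 1 at 16 and 4 at 17. The 15 cells with 16 or more members, a limit set after the values were seen, are described here with no test. They came from 12 of the 100 libraries in 5 tables: 8 cells from the time course, 4 from the Acss2 table and 1 each from the Stat3, p300 and diet tables, with 0 of 361 and 0 of 246 cells in the cultures (which allows a share of up to 0.831% and 1.22%).

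Insulin genes took 41.1 to 64.9% of the reads of these cells (median 56.9%), against a median of 57.5% in the other cells. Leukocyte markers took a median of 0.0129% of their reads outside the insulin genes against 0.0158% in the others, and markers of all other types took under 1% in 13 of the 15. The highest cell, in HFD_G0_Acss2WT replicate 2, had 24 members with a read and held 95.2% of its library's Ifit3 reads, 99.1% of the Cxcl10 reads and 91.9% of the Isg15 reads. In G3.5 replicate 2 Isg15 stood at 4.69 CPM, and 1 cell held 98.3% of its reads. A single cell could also hold a library's reads of 1 member without reaching 16 members: in the cultures Cxcl10 stood at 167.9 CPM in MS_A485Ctrl replicate 1 and at 0.0351 in replicate 2, and 1 cell held 99.2% of the reads of the first.

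The class I genes, which did not enter the count, were also high in these cells. B2m had a median of 348 reads per 1000000 outside the insulin genes against 74.1 in all other cells, H2-K1 1010 against 607, H2-D1 792 against 471 and Tapbp 340 against 164. Tap1 had a median of 111.99 against 0 and Tap2 84.9 against 39. B2m lay above the median of its own library in 14 of 14 cells, Tapbp in 15 of 15, Tap1 in 14 of 15, H2-K1 and H2-D1 in 11 of 14 and Tap2 in 11 of 15. The effectors Oasl2, an Oas relative with ubiquitin-like domains, and Rsad2 had medians of 390 and 296 in them, against 0 in the other cells, but both entered the count that chose these cells. Ifit2, listed with the same family as Ifit1 and Ifit3, had 0 reads in all 14 cells whose table held it, and Isg15 was read in 8 of 15.

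**Figure D4:**
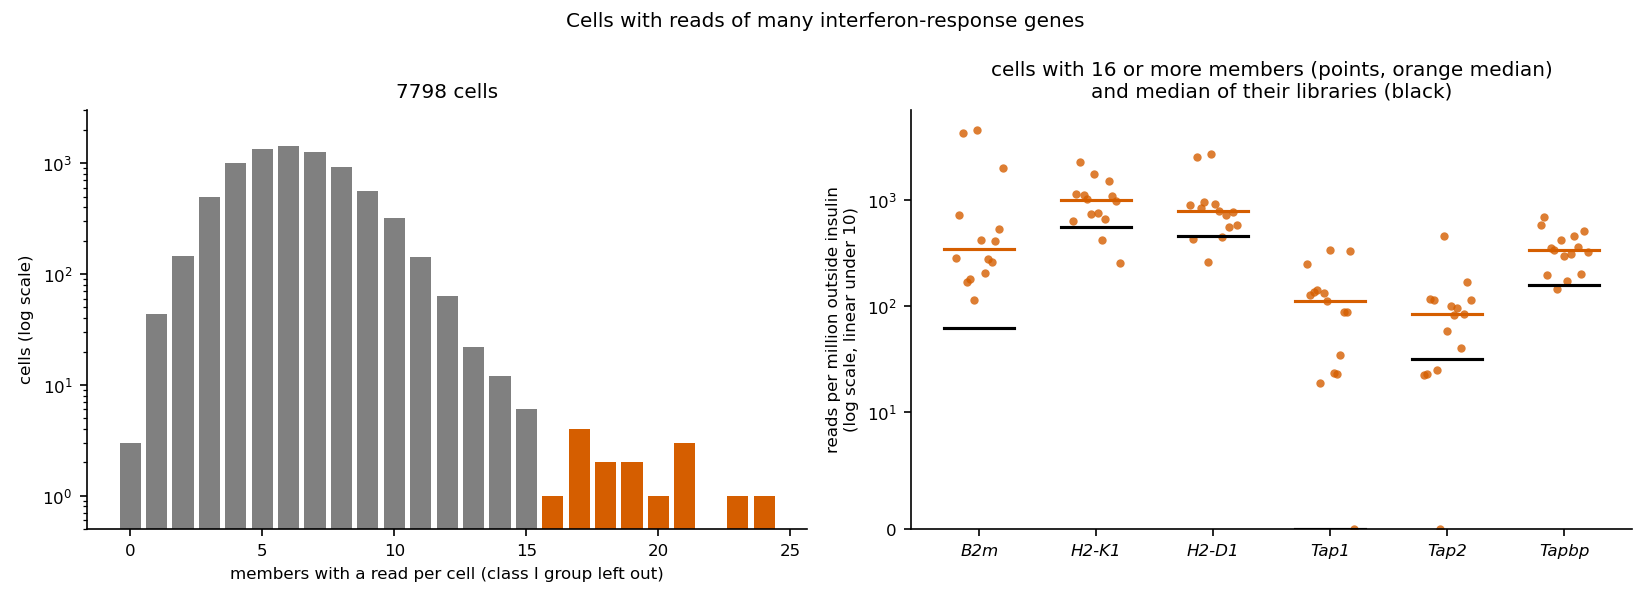
Left, cells (log scale) by the number of members with a read at the thinned depth, class I genes left out, with the 15 cells at 16 or more in orange. Right, levels of 6 class I genes in these cells (reads per 1000000 outside the insulin genes, log scale with a linear part under 10), with their median in orange and the median of their libraries' medians in black; B2m lies above its library median in 14 of 14 cells.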

How the data were processed

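The deposited read counts per gene and cell of 7 tables were used. Per the submitters' processing notes the authors trimmed reads with Trimmomatic 0.39 and counted them with featureCounts 2.0.1 on GRCm38 (mm10). The aligner, the annotation and whether duplicate reads were removed were not given in the sources used here, and reads are not molecules. The 2 10x islet libraries and the normalized tables were not used here.

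Counts of the 7897 cells were summed per labelled group and replicate, which makes the library the replicate. Each table was fitted with all its groups in edgeR 4.0.16 (R 4.3.3) by the quasi-likelihood test with TMM scaling and filterByExpr, adjusted over all tested genes by Benjamini-Hochberg and called at an adjusted p under 0.05. SE is the fold change divided by the square root of F. A share or floor covers counting error only. The alternatives were DESeq2 1.42.0, limma 3.58.1 on cells of equal weight (log2 values), no filter, the replicate number as a block, cells with over 1% of reads outside the insulin genes from markers of other types left out (422 cells, with Ttr not counted as a marker since β cells also express it, 891 if counted), each library left out in turn and, chosen after seeing the data, the 15 cells with reads of 16 or more members left out. Those 15 cells were picked by reads of the members outside class I, so leaving them out is not an independent check of those members. The fits were tested on simulated data.

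The members and all gene lists were chosen with earlier results of these data known. The rule for named genes took called members, at most 8 per comparison by size, the knocked-out gene, and the 3 highest and 3 lowest called genes of the pathway lists, and not every gene it names is given. B2m, H2-K1, H2-D1, Tap1, Stat2, Irf7, Isg15 and Ifit3 were followed in every table that held them and are given by library or as a range. A result on a further gene is not reported here.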

Additional observations from a re-analysis of the deposited data

Results flagged for a closer look

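The effect of the p300 knockout on Rsad2 differed between the 2 stages, by a test of the difference itself: 6.04 on the log2 scale between G14.5 and G0 (adjusted p = 0.023, edgeR quasi-likelihood test), with p300KO at 0.117 and 0.0595 CPM at G0 and 2.38 and 4.50 at G14.5, and p300WT at 7.86 and 10.6 and then 6.79 and 3.92. The fitted value rests on 8 and 4 reads in the p300KO libraries at G0, and limma on cells of equal weight gave 3.89 (adjusted p = 0.19). With 2 or 3 libraries a group, no group was large enough to be searched for a single outlying library.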

How the results depend on the processing

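Counts of member calls depended on the model. Every background given in this report is that of the main edgeR fit. The share of all genes called under the other settings is not given, so a higher or lower count there is not read as more or less change of the members. With DESeq2 the count was 43 for gestation stages (24 with edgeR), 7 after delivery (2), 2 for lactation (0), 2 for the Acss2 knockout (0), 1 for Stat3 (0), 3 for p300 (1), 2 for Acss2 on high-fat diet (0), 5 for G14.5 in the wild types (0) and 9 in the knockouts (2), 11 for gestation and delivery on high-fat diet (4), 1 for diet (0), 2 for serum (1), 7 for A485 (1), 1 for nifuroxazide (0) and 3 for the differences between effects (1). With no filter on low counts the counts, in the same order, were 48, 10, 6, 5, 1, 4, 6, 9, 10, 15, 4, 4, 8, 4 and 11, and 25 for any difference in the time course (16). With limma on cells of equal weight the count was 1 for lactation, 3 for the wild types, 4 for the knockouts, 1 for diet, 2 for serum, 7 for A485, 2 for nifuroxazide, 0 for the differences and 6 for any difference. Without cells rich in markers of other types the count on high-fat diet was 2, and without the 15 cells with reads of 16 or more members it was 2, and 9 for any difference.

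With 1 library left out the counts ranged from 7 to 26 for gestation, 0 to 2 after delivery, 0 to 1 for lactation, 0 to 1 for Acss2 on high-fat diet, 0 to 1 in the wild types and 1 to 2 in the knockouts. They ranged from 0 to 5 for gestation and delivery on high-fat diet, 1 to 2 for serum, 0 to 5 for A485, 0 to 1 for nifuroxazide, 0 to 1 for the differences and 11 to 18 for any difference. Where an arm was left with 1 library, that library was assumed to vary like the others. A single named value changed sign: B2m in maternal against normal serum with nifuroxazide vehicle, from -0.21 (adjusted p = 0.93) without MS_NifCtrl replicate 1 to 1.28 without MS_NifCtrl replicate 2. Causes were not tested.

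With the replicate number as a block the counts were 5 for A485 and 1 for G14.5 in the wild types, and 23 for gestation. Pairing of libraries by number was not detected: replicate differences correlated from -0.12 to 0.14 over 41 comparisons (median 0.0024). The highest was maternal against normal serum with A485 vehicle. A correlation near 0 cannot exclude that libraries of the same number were handled together. Members at a few reads per library, such as Isg15, can show only large differences at this depth.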
